A study of Mus musculus with 18 samples.

Results

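The genes of the lamins, the LINC complex and the nuclear envelope were followed through 18 RNA-seq libraries of mouse marrow-derived mesenchymal stem cells (MSC). The set held 10 genes chosen by name out of the 54347 genes of the deposited table. They were the lamins Lmna, Lmnb1 and Lmnb2, the SUN proteins Sun1 and Sun2, the nesprins Syne1, Syne2 and Syne3, emerin (Emd) and the lamin B receptor (Lbr). All 10 were found in the table, and all 10 were tested in every comparison. The MSC were a primary line that the authors made from male C57BL/6J mice and used for all their studies. Each of the 6 groups held 3 libraries from distinct preparations. Spread within a group is therefore between cultures of that line, and not between mice. The first experiment used untransfected cells, kept as control or treated with a compound that acts on actin. CK666 blocks the Arp2/3 complex, from which actin branches grow, and cytochalasin D (CytoD), a mould toxin, caps growing filament ends. Every culture of the second experiment received an siRNA, either a control one (siControl), one against Arp4 (siArp4), or the latter followed by CK666 (siArp4+CK666). Arp4 is an actin-related protein of the nucleus, made from the gene Actl6a. The RNA came from whole cultures of primary cells, so fewer cells of a type and less RNA per cell cannot be told apart.

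The nucleus is bounded by paired membranes lined on the inner face by the lamina, a mesh of A-type lamins (from Lmna) and B-type lamins (from Lmnb1 and Lmnb2). SUN proteins cross the inner membrane, bind the lamina and hold the nesprins of the outer membrane. Together they form the LINC complex, the linker of nucleoskeleton and cytoskeleton, through which actin cables pull on the nucleus. Emerin is an inner membrane protein that binds lamins and the chromatin protein barrier-to-autointegration factor. The lamin B receptor ties B-type lamins and heterochromatin to the membrane, and is also an enzyme of sterol synthesis. The comparisons ask how the genes of this linkage respond when actin branching, actin filaments or a nuclear actin-related protein is disturbed.

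Total counts ran from 18075610 to 24733212 per library, and 12628 to 13321 genes reached a count of 10. The knockdown target Actl6a stood at 720.1 to 1127 normalized counts in siControl. The siArp4 libraries held 19.0 to 57.2 and the siArp4+CK666 libraries 9.52 to 22.9. Of 12 MSC markers 10 were detected in every library, while Thy1 was at 0 in all 18 and Nt5e reached at most 7.88 normalized counts. CK666 replicate 1 and siControl replicate 2 stood apart from their own groups. Genes with over 10 kb of exon lay at a median of -0.38 (log2, against their mean over the experiment) in CK666 replicate 1 and at -0.52 in siControl replicate 2, where genes with under 2 kb of exon lay at 0.44 and 0.80. The long genes lay at 0.26 in siControl replicate 1. In siArp4+CK666 replicate 1 the long genes lay at 0.39 and the short ones at -0.42. Values without CK666 replicate 1 or siControl replicate 2 are given where they change a call or move a value widely.

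Levels between genes were compared as normalized counts per kb of annotated exon. Lmna stood at the top in every group and Syne1 at the bottom. In control cells Lmna was at 3629 ± 73.6 per kb (SD, n = 3) and Lmnb1 at 1181 ± 31.4, followed by Sun2 at 617 ± 24.2 and Emd at 593 ± 28.0, whose libraries overlapped. Lbr was at 489.7 ± 27.8 per kb, Syne3 at 251 ± 20.6, Lmnb2 at 206 ± 5.64 and Sun1 at 198 ± 14.2, and of these neighbours Lmnb2 and Sun1 overlapped. The giant nesprin genes Syne2 and Syne1, whose longest products bind actin directly, came last at 51.0 ± 17.5 and 24.98 ± 5.995 per kb. The order below Lmna shifted between groups. In CK666 cells Emd and Sun2 stood above Lmnb1, which was at 346 ± 15.1 per kb. In siArp4 cells Lbr at 259.6 ± 13.3 per kb stood above Sun2 at 231 ± 13.9 and Emd at 181 ± 13.1. Exon lengths joined all annotated transcripts of a gene, so the per kb level of a gene read mostly from a short isoform is a low estimate.

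**Figure D1:**
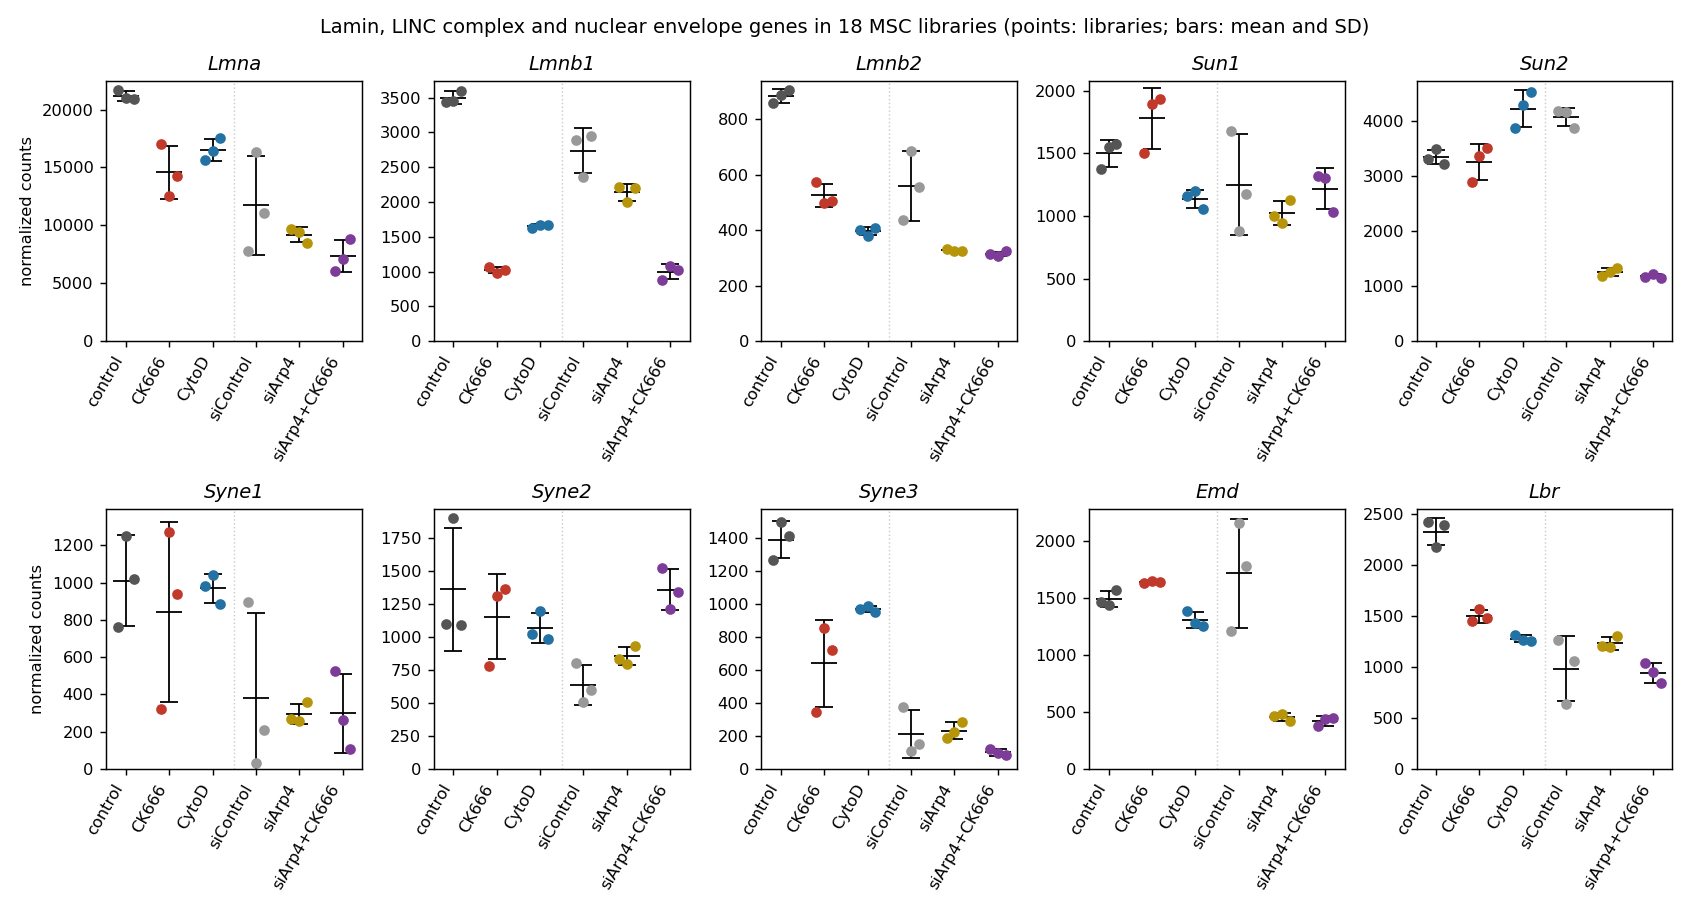
Normalized counts (y axis, linear, from 0) of the 10 genes in each library (points) of the 6 groups (x axis), with the mean and SD of 3 libraries as bars. Counts were scaled within each experiment, so levels are read on each side of the dotted line. The CK666 libraries of Lmnb1 sit between 979 and 1068, all below the control libraries, and the siArp4 libraries of Sun2 and Emd sit below all siControl libraries.

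The lamin genes were lower in untransfected MSC given CK666, and Lmnb1 changed most among the 10 genes. Lmnb1 (chr18:56707813-56753424 on GRCm38, plus strand), which codes for lamin B1, stood at 3432, 3456 and 3603 normalized counts in the control libraries and at 1068, 979 and 1024 with CK666. All CK666 libraries were low and the groups did not overlap. The change was -1.77 (log2, SE 0.08), a level 3.42 times lower, with an adjusted p of 1.44e-103 (DESeq2 Wald test, Benjamini-Hochberg over all genes tested). Lmnb2 (chr10:80901203-80918245, minus strand), for lamin B2, stood at 856, 888 and 903.5 in control and at 574, 496 and 505 with CK666, a change of -0.75 (SE 0.11, adjusted p 1.96e-10, DESeq2). The Lmnb2 groups did not overlap either. Lmna (chr3:88480147-88509956, minus strand), for lamins A and C, stood at 21678, 20994 and 20886 in control and at 17014, 12499.8 and 14248 with CK666. All CK666 libraries of Lmna were low, with replicate 1 the highest of them. The change was -0.54 (SE 0.12, adjusted p 5.57e-05, DESeq2), and -0.66 without that library. In a fit of all 18 libraries the adjusted p for Lmna was 0.0488 (DESeq2, range 4.43e-18 to 0.0488 over the alternatives without a fold in the test).

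Lbr (chr1:181815335-181843046, minus strand) held 2420.2, 2179 and 2395 normalized counts in control and 1448, 1566 and 1481 with CK666. Its groups did not overlap, and the change was -0.64 (log2, SE 0.09, adjusted p 1.27e-11, DESeq2). Lbr overlaps Dnah14 on the opposite strand and the libraries were unstranded, but Dnah14 had a mean count of 28.7 against 1399 for Lbr.

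The LINC complex genes moved less evenly with CK666. Syne3 (chr12:104929933-105009809, minus strand), the nesprin that binds plectin and so links the nucleus to intermediate filaments, stood at 1268, 1495 and 1410.5 normalized counts in control and at 347, 854 and 721 with CK666. Its groups did not overlap, and replicate 1 was the lowest of the CK666 libraries. The change was -1.12 (log2, SE 0.25, adjusted p 6.04e-05, DESeq2). Without CK666 replicate 1 it was -0.82 (adjusted p 2.22e-12, DESeq2), under a fold of 2, and in a fit of all 18 libraries it was -1.13 (adjusted p 0.0117, DESeq2). Sun2 was at 3319, 3485 and 3226 in control and at 2898, 3366 and 3515 with CK666, with a difference of -0.04 (95% interval -0.25 to 0.18, adjusted p 0.828, DESeq2). Emd was at 1467, 1439 and 1573 in control and at 1635, 1649 and 1645 with CK666, with a difference of 0.14 (95% interval -0.04 to 0.31, adjusted p 0.221, DESeq2). The Sun2 groups overlapped, and the CK666 libraries of Emd lay slightly above the control libraries. Sun1 (0.25), Syne1 (-0.26) and Syne2 (-0.24) did not pass the test, and their groups overlapped.

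A gene was called where its adjusted p was below 0.01 and its fold over 2. By that rule 2 of the 10 genes were called with CK666, Lmnb1 and Syne3, beside 11.0% of the 14597 genes tested. At an adjusted p below 0.01 alone 5 of 10 passed, all lower, beside 30.0% of all genes, 14.7% lower. The median change of the 10 genes was -0.40 and that of all tested genes 0.01. The groups did not overlap for 6 of the 10 genes, and for 47.5% of all genes.

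CytoD, compared with the same control libraries, was followed by lower levels of both B-type lamin genes. Lmnb1 stood at 1631, 1669 and 1677 normalized counts with CytoD, all below the control libraries, a change of -1.08 (log2, SE 0.08, adjusted p 1.55e-39, DESeq2). Lmnb2 stood at 401, 379.5 and 407, a change of -1.16 (SE 0.11, adjusted p 7.68e-23, DESeq2), again without overlap. Lbr was at 1318, 1267 and 1257, a change of -0.86 (SE 0.09, adjusted p 2.26e-20, DESeq2). These CytoD libraries lay close together. The SUN genes went in opposite directions. Sun1 fell, with a change of -0.40 (SE 0.13, adjusted p 0.0077, DESeq2), to 1157, 1198 and 1054 counts, all below the control libraries at 1376.5 to 1571. Sun2 rose by 0.34 (SE 0.11, adjusted p 0.00673, DESeq2), to 3874, 4284 and 4524, all above the control libraries at 3226 to 3485. When 1 control or CytoD library was left out the adjusted p ran from 0.0115 to 0.0669 for Sun1 and from 0.00695 to 0.0761 for Sun2, and with edgeR it was 0.0227 and 0.017.

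Lmna was at 15639, 16384 and 17529.6 normalized counts with CytoD, all below the control libraries, with a log2 difference of -0.36 (SE 0.12, adjusted p 0.0104, DESeq2) that missed the limit. Syne3 was at 969, 988 and 951 with CytoD, also below all control libraries, with a difference of -0.52 (95% interval -1.02 to -0.03, adjusted p 0.0904, DESeq2). Emd (-0.19, adjusted p 0.0782), Syne1 (-0.06) and Syne2 (-0.35) did not pass the DESeq2 test. Of the 10 genes 2 were called with CytoD, Lmnb1 and Lmnb2, beside 9.12% of the 13717 genes tested. At an adjusted p below 0.01 alone 5 passed, 4 lower and 1 higher, beside 29.6% of all genes, 16.0% lower and 13.6% higher. The groups did not overlap for 8 of the 10 genes and for 58.9% of all genes.

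Set directly against each other, CK666 and CytoD differed in 5 of the 10 genes at an adjusted p below 0.01, 3 higher and 2 lower with CK666, beside 31.8% of all genes, 16.9% higher and 14.9% lower. None of the 10 differed over 2-fold by DESeq2, beside 11.8% of the 15038 genes tested. Lmnb1 was lower with CK666 than with CytoD (log2 difference -0.70, SE 0.08, adjusted p 5.34e-16, DESeq2), while Lmnb2 was higher (0.41, SE 0.12, adjusted p 0.00159, DESeq2). Sun1 was higher with CK666 (0.65, SE 0.13, adjusted p 4.87e-06, DESeq2) and Sun2 lower (-0.38, SE 0.11, adjusted p 0.0022, DESeq2). Emd was higher with CK666 by 0.33 (SE 0.09, adjusted p 0.00096, DESeq2). The others did not pass, among them Lmna with a difference of -0.18 (95% interval -0.42 to 0.06) and Syne3 with -0.60 (95% interval -1.10 to -0.10, adjusted p 0.046, DESeq2). Without CK666 replicate 1, where 7 of the 10 genes passed, Lmna (-0.30, adjusted p 0.000149) and Lbr (0.25, adjusted p 0.0082, both DESeq2) did so as well. Syne3 passed without CK666 replicate 2 (-0.85, adjusted p 0.00103, DESeq2). The count of 5 was 2 to 7 over the alternatives, with 2 without CytoD replicate 2, 3 without CytoD replicate 3, 2 in a fit of these 2 groups alone, 3 with the replicate block and 3 in a fit of all 18 libraries. Lmnb1 and Sun1 passed in each of these. Without CytoD replicate 2 the adjusted p was 0.0271 for Lmnb2, 0.0253 for Sun2 and 0.0232 for Emd (DESeq2). CK666 and CytoD libraries did not overlap for 7 of the 10 genes, and for 49.3% of all genes.

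**Figure D2:**
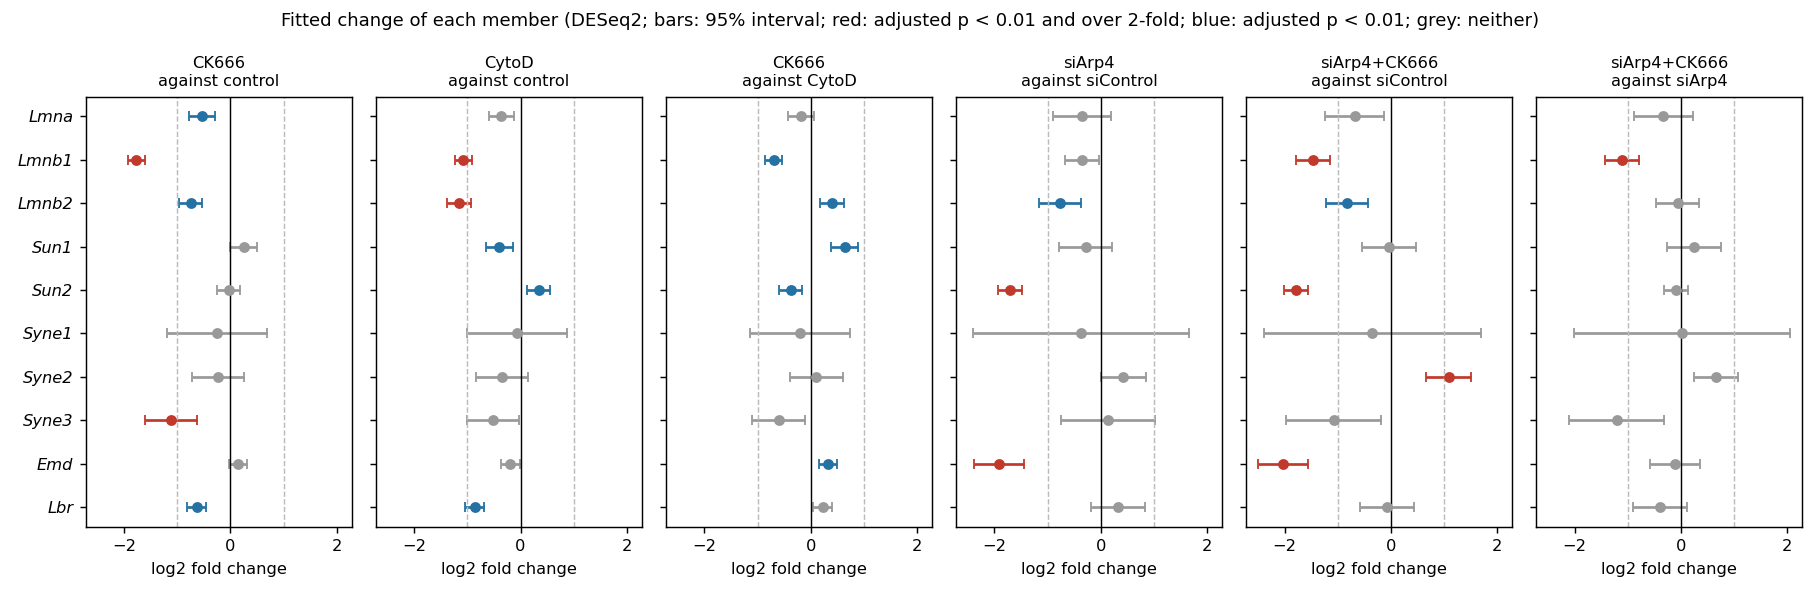
Fitted log2 fold change (x axis) of each gene (y axis) in the 6 comparisons, with 95% intervals as bars. Red marks an adjusted p below 0.01 and a fold over 2, blue an adjusted p below 0.01 alone, grey neither. Lmnb1 is red in 4 panels, and Sun2 and Emd are red in both comparisons with siControl and near 0 in the panel for CK666 against control.

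Ratios taken within a library do not depend on scaling between libraries, and were used to follow the make-up of the lamina transcripts. They do not cancel a trend with exon length within a library, and Lmna has 5838 bases of exon where Lmnb1 has 2962. The part of that trend in the ratios was not tested. Per kb of exon, the ratio of Lmna to Lmnb1 was 3.205, 3.08 and 2.94 in the control libraries, 8.08, 6.48 and 7.06 with CK666 and 4.86, 4.98 and 5.30 with CytoD. The 3 groups did not overlap, with CK666 highest and control lowest. The ratio of Lmnb1 to Lmnb2 was 5.73 ± 0.0909 (SD, n = 3) in control, 2.83 ± 0.122 with CK666 and 6.07 ± 0.254 with CytoD, and the CK666 libraries lay below all others of the experiment. The ratio of Sun2 to Sun1 was 3.13 ± 0.251 in control, 2.58 ± 0.112 with CK666 and 5.24 ± 0.691 with CytoD, without overlap. For each of these pairs of groups the two-sided exact permutation test gave 0.1, the smallest p that 3 against 3 libraries allow, and 0.129 after Benjamini-Hochberg adjustment over 18 such tests.

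**Figure D3:**
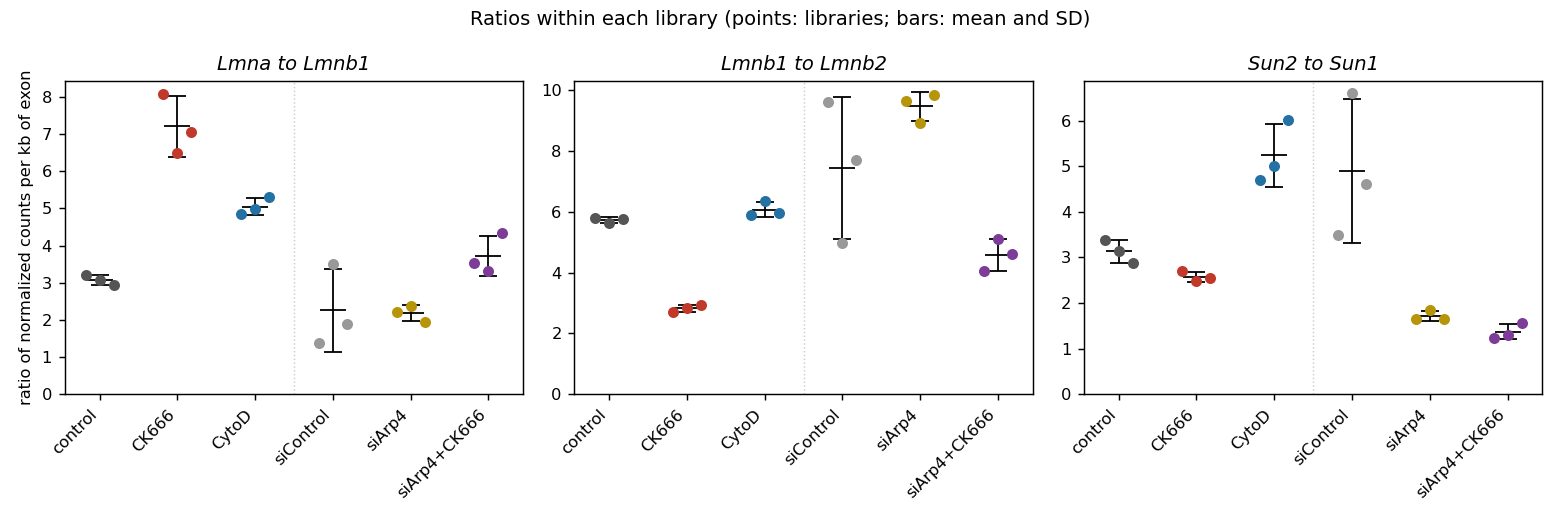
Ratio of normalized counts per kb of exon between gene pairs (y axis, linear, from 0) in each library (points) of the 6 groups (x axis), with mean and SD of 3 libraries as bars. The CK666 libraries have Lmna to Lmnb1 ratios of 6.48 to 8.08, above all control libraries, and the siArp4 libraries have Sun2 to Sun1 ratios of 1.65 to 1.85, below all siControl libraries.

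Under knockdown of Arp4 the called genes were Sun2 and Emd. Sun2 (chr15:79724070-79742536, minus strand), whose product anchors actin cables to the lamina, stood at 4184, 4161 and 3878 normalized counts in siControl and at 1179.9, 1250.5 and 1330.5 in siArp4. The siArp4 libraries were all low and both groups were tight. The change was -1.70 (log2, SE 0.11), a level 3.25 times lower (adjusted p 1.87e-47, DESeq2). Emd (chrX:74254687-74261548, plus strand) stood at 1212, 2159 and 1782 in siControl and at 464, 482 and 418 in siArp4. The siControl libraries of Emd varied widely but lay above all siArp4 libraries. The change was -1.92 (SE 0.24), a level 3.78 times lower (adjusted p 3.64e-14, DESeq2). Without siControl replicate 2 the changes were -1.69 for Sun2 and -1.73 for Emd, and both were still called.

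The promoter windows of Sun2 and Emd are shown because these genes fell together under the knockdown. They are the 250 bases before the gene start in RefSeq (GRCm38.p6), read on the strand of the gene, at chr15:79742537-79742786 (minus strand) for Sun2 and chrX:74254437-74254686 (plus strand) for Emd. Capitals mark the words searched, on both strands.

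Sun2: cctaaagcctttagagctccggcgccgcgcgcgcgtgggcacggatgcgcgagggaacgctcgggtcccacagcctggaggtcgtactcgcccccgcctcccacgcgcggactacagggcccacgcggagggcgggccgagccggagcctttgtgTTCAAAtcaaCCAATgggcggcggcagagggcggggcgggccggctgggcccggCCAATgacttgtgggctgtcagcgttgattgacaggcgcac

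Emd: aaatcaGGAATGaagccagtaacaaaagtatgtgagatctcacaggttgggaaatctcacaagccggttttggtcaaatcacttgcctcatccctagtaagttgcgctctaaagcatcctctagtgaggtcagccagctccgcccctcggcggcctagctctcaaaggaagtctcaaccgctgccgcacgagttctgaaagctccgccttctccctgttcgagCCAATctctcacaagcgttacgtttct

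The words searched were CCAAT, the CHR word TTTGAA known from cell cycle genes, the TEAD word GGAATG, and the E2F words TTTGGCGC, TTTGCCGC, TTTCGCGC and TTTCCCGC. The Sun2 window held 1 CHR word and 2 CCAAT words, and the Emd window 1 CCAAT word and 1 TEAD word, none overlapping another. Of 32851 RefSeq windows of the same length, 33.8% held CCAAT, 16.0% the CHR word, 12.6% the TEAD word and 1.86% an E2F word. Windows were found for 9 of the 10 genes. Lmnb1 had no window and was not searched for any of the words. Lbr held 1 CHR and 2 CCAAT words, Sun1 2 CCAAT words, and Lmna, Lmnb2, Syne1, Syne2 and Syne3 none of the words. A match describes sequence and not binding.

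Among the lamin genes Lmnb2 passed the test under the knockdown, at 436, 685 and 556 normalized counts in siControl and 333.5, 324 and 325 in siArp4, a change of -0.77 (log2, SE 0.20, adjusted p 0.000847, DESeq2). The siArp4 libraries of Lmnb2 lay close together below all siControl libraries. Its adjusted p was 0.0121, 0.0147 or 0.0141 (DESeq2) without siArp4 replicate 1, 2 or 3, which misses the limit in each case. Lmnb1 was at 2899, 2363 and 2954 in siControl and at 2222, 1999.9 and 2205 in siArp4, with a difference of -0.35 (95% interval -0.67 to -0.04, adjusted p 0.0719, DESeq2). The siArp4 libraries of Lmnb1 lay below all siControl libraries, and it passed without siControl replicate 2 (-0.46, adjusted p 0.00796, DESeq2) and in a fit of all 18 libraries (-0.33, adjusted p 0.00436, DESeq2). Lmna was at 7809, 16320.2 and 11057 in siControl and at 9707, 9409.7 and 8447 in siArp4, within the siControl spread (difference -0.35, 95% interval -0.91 to 0.20, and -0.05 without siControl replicate 2). Lbr (0.33), Sun1 (-0.29), Syne1 (-0.37), Syne2 (0.42) and Syne3 (0.13) did not pass, and their groups overlapped. Without siControl replicate 2 they were at 0.08, -0.49, -0.92, 0.28 and -0.19, and none passed with DESeq2. Without siControl replicate 1 Syne2 passed (0.62, adjusted p 0.00215, DESeq2). The Sun2 to Sun1 ratio per kb was 3.49, 6.60 and 4.61 in siControl and 1.65, 1.85 and 1.65 in siArp4, without overlap (exact permutation p 0.1).

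Sun2 and Emd made 2 of 10 genes called under the knockdown, both lower, beside 16.2% of the 15415 genes tested (9.49% lower), and 3 of 10 passed on adjusted p alone, beside 25.1%. The median change of the 10 genes was -0.35 and that of all tested genes -0.05. Groups did not overlap for 4 of the 10 genes and for 43.5% of all genes. Whether the falls of Sun2 and Emd with the knockdown differed from their values with CK666 in untransfected cells was not tested.

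With CK666 added to the knockdown, Lmnb1 was lower as well. It stood at 878, 1083 and 1031 normalized counts in siArp4+CK666, below all siControl and all siArp4 libraries. Against siControl the change was -1.46 (log2, SE 0.16, adjusted p 5.85e-18, DESeq2), and against siArp4 it was -1.10 (SE 0.16, adjusted p 5.49e-10, DESeq2). Sun2 stood at 1165, 1220.0 and 1148 and Emd at 373, 441 and 451, overlapping with siArp4. Against siControl Sun2 changed by -1.79 (SE 0.11, adjusted p 1.07e-52, DESeq2) and Emd by -2.03 (SE 0.24, adjusted p 7.12e-16, DESeq2). Against siArp4 the differences were -0.09 for Sun2 (95% interval -0.32 to 0.14) and -0.11 for Emd (95% interval -0.58 to 0.37), and neither passed. Lmnb2 was at 313, 307 and 323.5, a change of -0.83 against siControl (SE 0.20, adjusted p 0.000245, DESeq2) and a difference of -0.06 from siArp4 (95% interval -0.46 to 0.34). Lmna was at 6094, 7077 and 8816, overlapping with both other groups, with a difference of -0.68 from siControl (adjusted p 0.043, DESeq2, with -0.37 without siControl replicate 2 and -0.90 and an adjusted p of 0.000308 without siControl replicate 1) and of -0.33 from siArp4 (95% interval -0.88 to 0.23). The Lmna to Lmnb1 ratio per kb was 3.52, 3.32 and 4.34 in siArp4+CK666 and 2.22, 2.39 and 1.94 in siArp4, without overlap. In siControl it was 1.37, 3.50 and 1.90, overlapping with both other groups (exact permutation p 0.2 for siArp4+CK666 against siControl). Lbr and Sun1 did not pass in either comparison, at -0.06 and -0.03 against siControl (-0.30 and -0.23 without siControl replicate 2) and -0.39 and 0.25 against siArp4.

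Syne2 (chr12:75818134-76110926, plus strand), a giant nesprin that binds actin, was the called gene that rose. It stood at 804, 507 and 599.6 normalized counts in siControl and at 837, 799 and 932 in siArp4. The siArp4+CK666 libraries held 1523, 1215 and 1340.5, above all others of the experiment. The change against siControl was 1.09 (log2, SE 0.21, adjusted p 2.68e-06, DESeq2), and the difference from siArp4 was 0.67 (SE 0.21, adjusted p 0.0161, DESeq2). That difference passed without siControl replicate 1 (0.000319) or 2 (0.00115) and in a fit of the 2 groups alone (7.88e-05), and its adjusted p reached 0.155 without siArp4 replicate 2. The change against siControl was 0.95 without siControl replicate 2 and 0.76 with the length trend of each library removed, under 2-fold in both. Syne3 stood at 123, 94.4 and 82.2 in siArp4+CK666 and at 185, 221 and 285.5 in siArp4, without overlap. Its difference from siArp4 was -1.21 (SE 0.45, adjusted p 0.053, DESeq2), which did not pass, and its difference from siControl was -1.08 (adjusted p 0.0461, DESeq2). Against siArp4 Syne3 passed without siControl replicate 1 (adjusted p 0.000263), without siControl replicate 2 (0.00703), in a fit of these 2 groups alone (7.94e-05) and in a fit of all 18 libraries (0.00961), and the range over the alternatives without a fold in the test was 7.94e-05 to 0.263. Against siControl Syne3 was called without siControl replicate 2 (-1.40, adjusted p 0.00193, DESeq2).

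Against siControl 4 of the 10 genes were called with the combination, Lmnb1, Sun2, Emd and Syne2, 3 lower and 1 higher, beside 20.4% of the 15415 genes tested (12.4% lower and 8.06% higher), and 5 passed on adjusted p alone, beside 29.9%. Against siArp4 1 of 10 was called, Lmnb1, beside 5.75% of the 14098 genes tested, and 1 of 10 passed on adjusted p alone, beside 9.9%. That count was 3 without siControl replicate 1 or 2. Groups did not overlap for 5 of the 10 genes in each of these comparisons, beside 43.1% and 37.8% of all genes. The comparisons with siControl share its libraries, so their values are set side by side and are not separate evidence.

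The log2 change of Lmnb1 with CK666 was -1.77 in untransfected cells and -1.10 in siArp4 cells. The difference of these effects, fitted over all 18 libraries, was 0.67 (SE 0.15, adjusted p 0.000154, DESeq2), so the fall was smaller in the knockdown cells. With edgeR the adjusted p was 0.0166, which misses the limit, and the other alternatives without a fold in the test gave 1.88e-06 to 0.00257. Lmnb1 was the 1 gene of 10 past an adjusted p of 0.01 in this contrast, beside 7.82% of the 13511 genes tested, and 0 of 10 had a difference over 2-fold by DESeq2, beside 4.42%. For Lmnb2 the difference was 0.69 (SE 0.21, adjusted p 0.0126, DESeq2), short of the limit, and for Syne2 0.90 (SE 0.35, adjusted p 0.0721, DESeq2). For Sun2 it was -0.06 (95% interval -0.33 to 0.21). Knockdown, transfection and the experiment all differ between these effects and cannot be told apart, since the 18 libraries include no siControl cells with CK666.

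Syne1 had the widest spread of the 10 genes in siControl, CK666 and siArp4+CK666, with a coefficient of variation of 120.0%, 57.3% and 70.6%. It was at 899, 33.95 and 209 normalized counts in the 3 siControl libraries, at 319, 1272 and 939 with CK666, and at 527, 265 and 107.5 in siArp4+CK666. Within each of these groups the library with the lowest Syne1 count had the lowest median for genes with over 10 kb of exon, -0.52 in siControl replicate 2, -0.38 in CK666 replicate 1 and -0.05 in siArp4+CK666 replicate 3. The library with the highest Syne1 count had the highest such median, 0.26 in siControl, 0.18 in CK666 and 0.39 in siArp4+CK666. In CytoD, where Syne1 was at 984, 1041 and 886 and the medians at 0.02, -0.01 and -0.06, the highest count was not in the library with the highest median, and the order of Syne2 in siArp4+CK666 did not follow the medians either. Syne1 passed the test in none of the 7 comparisons, and its 95% interval for siArp4 against siControl ran from -2.41 to 1.66.

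**Figure D4:**
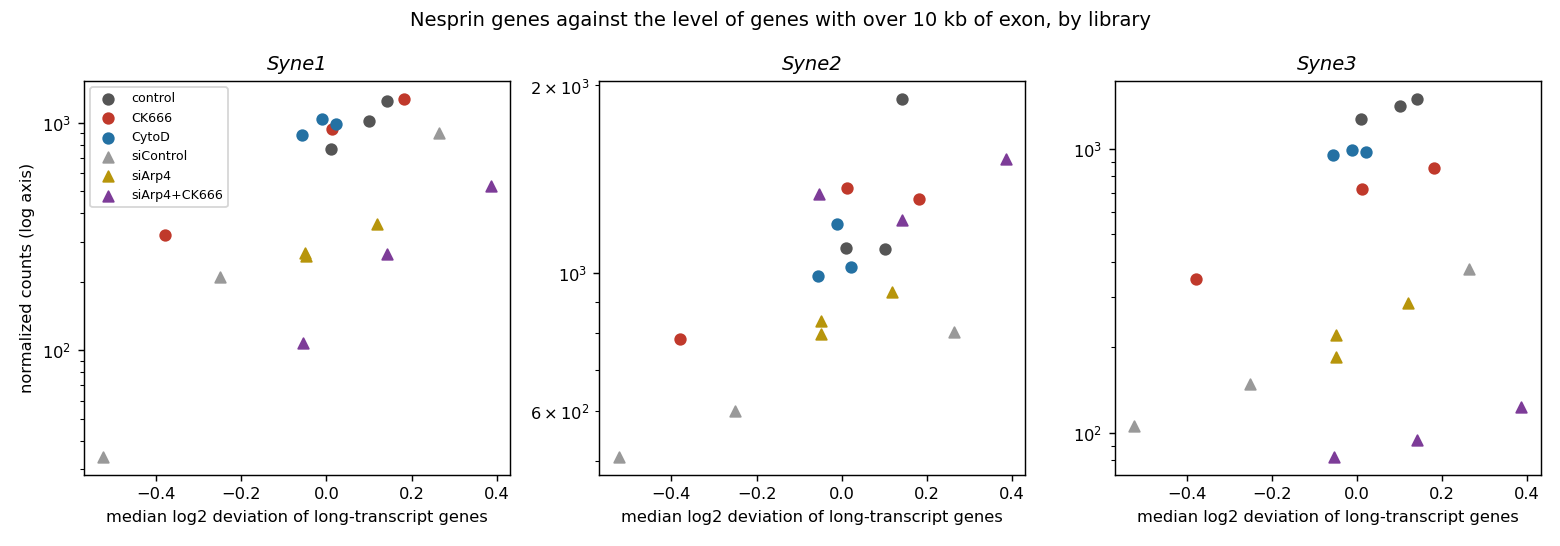
Normalized counts (y axis, log scale) of the 3 nesprin genes in each library (points) against the median log2 deviation of genes with over 10 kb of exon in that library (x axis). Circles are the first experiment and triangles the second, each scaled on its own. CK666 replicate 1, at -0.38, and siControl replicate 2, at -0.52, hold the lowest Syne1 and Syne3 counts of their groups.

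Other genes of the envelope moved in part. A list of 28 partners covered LEM domain proteins, torsins, enzymes that mature prelamin A and chromatin readers of the HP1 family. With CK666 10 of 25 tested partners fell and 4 rose at an adjusted p below 0.01, beside 30.0% of all genes (14.7% lower), and the list had a median change of -0.19. Cbx5, the HP1 protein that binds the lamin B receptor, changed by -1.11 (log2, adjusted p 2.12e-13), and Nrm, the inner membrane protein nurim, by -1.59 (adjusted p 2.8e-13, both DESeq2). Plec, the plectin that the Syne3 nesprin binds, changed by -1.10 (adjusted p 6.81e-08, DESeq2), with a change of -0.88 without CK666 replicate 1. Spag4, a further SUN domain gene, rose by 1.52 with CK666 (adjusted p 3.36e-06, DESeq2) and by 1.13 with CytoD (adjusted p 0.000973, DESeq2). The CytoD call was lost without control replicate 2 (adjusted p 0.0103) or CytoD replicate 2 (0.93, adjusted p 0.0296) and in a fit of all 18 libraries (0.0109, all DESeq2). With CytoD 9 of 24 tested partners fell and 1 rose, beside 16.0% lower and 13.6% higher of all genes. Tmpo, which codes for the lamin-binding LAP2 proteins, changed by -1.06 with CytoD (adjusted p 2.02e-26, DESeq2). Tmem201, an inner membrane protein, was 1.42 higher with CK666 than with CytoD (adjusted p 5.45e-25, DESeq2).

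Under the knockdown 4 of 25 tested partners rose and 2 fell, near the 25.1% of all genes that passed. They included enzymes that process prelamin A, in opposite directions. Icmt, the methyltransferase, changed by -1.24 (log2, adjusted p 4.07e-16, DESeq2), and Zmpste24, the protease, rose by 1.05 (adjusted p 0.00632, DESeq2). The Zmpste24 change was 0.76 without siControl replicate 2, under 2-fold, and it did not pass with edgeR (adjusted p 0.0326), in a fit of these 2 groups alone (0.0166), without siControl replicate 3 (0.0286), without siArp4 replicate 1 (0.021), 2 (0.023) or 3 (0.0536), or without siArp4+CK666 replicate 2 (0.0133). With the combination 5 of 25 fell and 3 rose against siControl, near the 29.9% of all genes, with Nrm called at -1.41 (adjusted p 2.46e-05, DESeq2), and 2 of 25 fell, both under 2-fold, against siArp4, beside 9.9% of all genes. In the contrast of CK666 effects Cbx5 had a difference of 1.10 (SE 0.30, adjusted p 0.00427, DESeq2), which did not pass with edgeR (0.031) and was under 2-fold, at 0.89, with the length trend removed. That call was also lost without any of 8 of the 18 libraries, with adjusted p of 0.0104 to 0.0274.

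Pore genes, whose products sit where the inner and outer membranes join, were lower with CytoD in most cases. With CytoD 23 of 28 tested pore genes fell at an adjusted p below 0.01, and 9 of them over 2-fold, with a median of -0.83 beside 0.01 for all genes, of which 16.0% fell. With CK666 10 of 28 fell and 1 rose, with a median of -0.31, beside 30.0% of all genes that passed (14.7% lower). Those called lower were Nup155 at -1.24 (log2, adjusted p 1.71e-11) and Nup85 at -1.10 (adjusted p 1.96e-13, both DESeq2), which are scaffold subunits. Set against each other, 14 of 28 were higher with CK666 than with CytoD and 0 lower, beside 16.9% and 14.9% of all genes. Ndc1, a membrane-spanning pore protein, changed by -1.38 with CytoD (log2, adjusted p 2.02e-27), and Nup43, a scaffold subunit, by -1.33 (adjusted p 1.68e-21, both DESeq2). Nup205, also a scaffold subunit, changed by -1.01 with CytoD (adjusted p 5.26e-29, DESeq2), and by -0.95 with the length trend removed. Rae1, an mRNA export factor of the pore, rose by 1.05 with CK666 (adjusted p 1.23e-16, DESeq2), with a change of 0.93 without CK666 replicate 1, and was 1.64 higher than with CytoD (adjusted p 1.69e-38, DESeq2).

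Under the knockdown 2 pore genes were called, Nup35 at -1.73 (log2, adjusted p 6.6e-18) and Ndc1 at -1.16 (adjusted p 2.69e-09, both DESeq2). The list of 29 tested pore genes had a median of -0.02, with 4 genes that rose and 2 that fell at an adjusted p below 0.01, no larger a share than the 25.1% of all genes. With the combination 7 of 29 fell and 5 rose against siControl, beside 29.9% of all genes. Of these 4 were called lower and 2 higher. Those lower included Nup35 at -1.58 (adjusted p 3.18e-15), Ndc1 at -1.51 (adjusted p 5.32e-15) and Nup43 at -1.13 (adjusted p 1.14e-06, all DESeq2). Pom121, a membrane-spanning anchor of the pore, changed by 1.27 (adjusted p 5.87e-12, DESeq2). Nup210, named after its values were seen, was also called higher, at a mean of 0.62 normalized counts in siControl and 14.4 in siArp4+CK666, and no fold is given for so low a count.

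**Figure D5:**
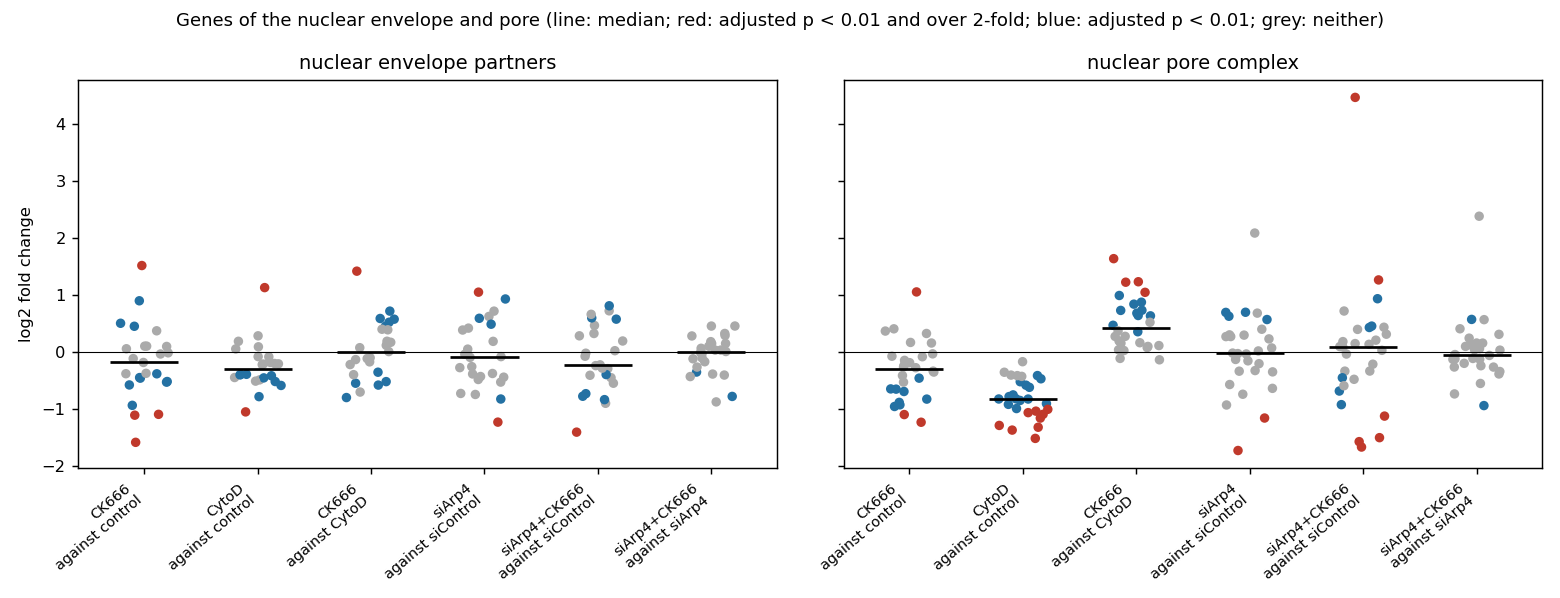
Log2 fold change (y axis) of each tested gene (points) of the envelope partner list and of the nuclear pore list in the 6 comparisons (x axis), with the list median as a line. Red marks an adjusted p below 0.01 and a fold over 2, blue an adjusted p below 0.01 alone. The pore list sits lowest with CytoD, at a median of -0.83, and the highest point is Nup210, which had few counts.

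Among the 10 genes the levels of Sun2 and Emd had the highest correlation over the 18 libraries (Pearson r of log2 normalized counts 0.938), followed by Syne1 and Syne3 (0.827). The libraries share groups and experiments, so these values describe the set and carry no test. Of 11159 genes with a mean of at least 50 normalized counts, those nearest in pattern to Sun2 were Fads1 (r = 0.992), Frmd8 (0.984) and Nipsnap2 (0.983). Those nearest to Emd were Scamp4 (0.982), Atp5c1 (0.981) and C1qtnf12 (0.981). Nearest to Lmna were Surf4 (0.95), Eml1 (0.95) and Arhgdib (0.943), and nearest to Lmnb1 were Ccl2 (0.96), Tubb6 (0.955) and Emp1 (0.941). Lmnb2 was nearest to Rangap1 (0.974), Kpna2 (0.949) and Mcm7 (0.944), and Lbr to Rad18 (0.98), Kpnb1 (0.97) and Tent4a (0.949). Kpna2 and Kpnb1 code for importins, which carry proteins through the pore. The nearest gene was Fam199x for Sun1 (0.938), Gm47652 for Syne1 (0.978), Tgfbrap1 for Syne2 (0.878) and Atp10a for Syne3 (0.978).

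Proliferation genes were lower in every treated group than in its control. The summed level of 34 such genes was 141403 to 144269.6 normalized counts in control, 62235 to 67350.6 with CK666 and 68547 to 70680.1 with CytoD. In the second experiment it was 57324 to 63728 in siControl, 25580.3 to 27459 in siArp4 and 13189 to 14081 in siArp4+CK666. At an adjusted p below 0.01, 33 of 34 fell with CK666, 33 with CytoD, 27 with siArp4, and with the combination 34 against siControl and 26 against siArp4. The shares of all genes that passed in either direction were 30.0%, 29.6%, 25.1%, 29.9% and 9.9%. Mki67, a marker of cycling cells, changed by -1.90 with CK666 (log2, SE 0.21, adjusted p 4.88e-18, DESeq2) and by -0.95 with CytoD (SE 0.21, adjusted p 4.41e-05, DESeq2). Top2a, the topoisomerase of dividing cells, changed by -1.03 with CK666 and -1.22 with CytoD. With siArp4 these genes changed by -1.95 and -1.11. The part of proliferation in the lamin results was not tested.

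Markers of other cells also differed between groups. The summed level of 10 haematopoietic markers was 107 to 171 normalized counts in control and 264 to 273 with CytoD, with Cd3e at 0 in every library. That of 7 endothelial markers was 18.4 to 59.4 in control and 72.7 to 245.5 with CK666, and 15.1 to 30.2 in siControl and 49.6 to 87.8 in siArp4+CK666, with Cdh5, Tie1 and Emcn at 0 in every library. Most of the endothelial sum was the single gene Vwf. Its mean over the 18 libraries was 54.0 normalized counts, beside 8.97 for Kdr, 1.61 for Pecam1 and 1.09 for Tek. The sum of 12 MSC markers was 202013 to 213542 in control and 107744 to 124119.8 with CK666, and 101160.5 to 173560.1 in siControl, 230333 to 261355 in siArp4 and 117084 to 140468 in siArp4+CK666. Most of that sum was the collagen genes Col1a1 and Col1a2, and with siArp4 6 of 10 tested markers lay above 0 and 4 below. The part of these shifts in the values of the 10 genes was not tested.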

How the data were processed

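RNA was sequenced as unstranded paired-end reads from 18 cultures, 3 distinct preparations for each of 6 groups. Per the study's methods, the authors estimated counts with Salmon 1.2.1 on GRCm38 with GENCODE vM25 and deposited 1 table of expected (estimated) counts per gene. How transcripts were summed to genes is not given in the sources used here. Near-identical copies of a gene can share such estimates.

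Counts were rounded and tested in R 4.3.3 with the DESeq2 1.42.0 Wald test, 1 fit per experiment of 9 libraries. A gene was called at an absolute log2 fold change over 1 and a Benjamini-Hochberg adjusted p below 0.01 over all genes tested. The difference between CK666 effects came from 1 fit of 18 libraries. Normalized counts were scaled by median-of-ratios within each experiment. Symbols and exon lengths were from GENCODE vM21, matched for 54094 of 54347 identifiers. Exact permutation tests used scipy 1.17.1. The fits were tested on simulated data.

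Alternatives were edgeR 4.0.16, TMM size factors, filterByExpr, a test against a fold change of 2, no fold minimum, removal of the length trend, a replicate block, other sets of libraries and leaving out each library. The members and gene lists were chosen with earlier results of these data known. Named genes were all members, Actl6a, Mki67, Top2a, and from the partner and pore lists up to 3 genes per direction and comparison with the smallest adjusted p among those called with a mean of at least 50 counts. Same-numbered libraries of control and CK666 had correlations of 0.104 to 0.244 over genes. Control replicate 2 and CK666 replicate 3, with different numbers, reached 0.102. Whether the numbers pair the cultures is not known from these values. The block changed no call of a member there.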

Additional observations from a re-analysis of the deposited data

Results flagged for a closer look

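The change of Lmnb1 with CK666 differed between siArp4 cells and untransfected cells by 0.67 (log2, SE 0.15, adjusted p 0.000154, DESeq2), in a test of the difference itself over 18 libraries. The difference was 0.60 to 0.76 when any 1 library was left out. With edgeR its adjusted p was 0.0166, and the other alternatives without a fold in the test gave 1.88e-06 to 0.00257. Knockdown, transfection and experiment cannot be told apart here.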

How the results depend on the processing

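Of the 10 genes, 2 were called for CK666 against control, and 1 in a DESeq2 test of changes over 2-fold, 1 in a fit of all 18 libraries, 5 with no fold minimum and 1 to 2 without 1 library (1 without CK666 replicate 1). CytoD against control gave 2 calls, 0 in the test against a fold of 2, and 5 with no minimum. CK666 against CytoD gave 0 calls by DESeq2 and 5 with no minimum. siArp4+CK666 gave 4 calls against siControl and 2 in the test against a fold of 2. Against siArp4 it gave 1, 0 in that test, 2 in a fit of the 2 groups alone, 2 in the 18-library fit, and 1 to 2 without 1 library (2 without siControl replicate 1 or 2). The contrast of CK666 effects gave 0 calls by DESeq2 and 1 with no minimum.

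On adjusted p alone the count went from 5 to 3 (18 libraries) for CK666 against control and from 5 to 3 (edgeR) for CytoD against control. It was 3 to 7 without 1 library for CytoD, and 2 to 7 without 1 library for CK666 against CytoD in place of 5. Against siArp4 it was 1, and 1 to 3 without 1 library.

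Syne1 changed sign without passing the test. It was at 0.056 (length trend removed) and 0.0066 (replicate block) for CytoD, 0.40 (block) for siArp4, 0.097 (block) for the combination against siControl, and -0.23 (length), -0.31 (block) and -0.0028 (18 libraries) against siArp4. The cause was not tested. Without 1 library, signs changed within these ranges. For CK666 against control they were -0.087 to 0.045 (Sun2), -0.68 to 0.13 (Syne1) and -0.38 to 0.079 (Syne2), and for CytoD -0.23 to 0.12 (Syne1). For CK666 against CytoD they were -0.62 to 0.19 (Syne1) and -0.024 to 0.33 (Syne2), and for siArp4 -0.92 to 1.27 (Syne1) and -0.19 to 0.85 (Syne3). For the combination they were -0.23 to 0.24 (Sun1), -1.03 to 1.30 (Syne1) and -0.30 to 0.16 (Lbr) against siControl, and -0.65 to 0.43 (Syne1) against siArp4. For the contrast they were -0.11 to 0.091 (Sun1), -0.40 to 0.70 (Syne1) and -0.39 to 0.17 (Syne3).

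Over all genes, the test against a fold of 2 called 349 in place of 1599 (CK666 against control), 147 in place of 1251 (CytoD against control), 438 in place of 1778 (CK666 against CytoD), 431 in place of 2494 (siArp4), 791 in place of 3150 (combination against siControl), 145 in place of 811 (against siArp4) and 58 in place of 597 (contrast). With edgeR the last pair were 466 and 384. TMM and filterByExpr changed no call of 96 results. Outside control and CK666, same-numbered libraries had correlations of -0.543 to 0.74, which do not show whether the cultures were paired. The replicate block in those comparisons changed no member call past the fold minimum. The fit of control and CK666 alone with the block, chosen after seeing the data, changed 0 of 17 results. With 3 libraries a group, changes in genes with a wide spread such as Syne1 were not detectable unless large.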
